A study of Mus musculus with 4 samples.

Results

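The 77 genes described here carry symbols of mouse mitochondrial ribosomal proteins, and 76 of them encode proteins of that ribosome. They were chosen by symbol, as every row of the gene table that starts with Mrpl or Mrps followed by a number, which gave 77 of the 24054 symbols listed. Of these, 48 are Mrpl genes, named for the large subunit, and 29 are Mrps genes, named for the small subunit. All 77 passed the filter on low counts and were tested among 13652 genes. The rule uses no expression value, although the gene set was picked with earlier results of these data known.

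The study asked whether repeated infusion of cardiosphere-derived cells protects dystrophic muscle, and RNA-seq compared soleus muscles from treated and control mice at the 12-month endpoint. All animals were female mdx mice on the C57BL/10ScSn background, so both groups carry the dystrophin mutation and neither is a healthy control. From 8 weeks of age, the mCDC group received mouse cardiosphere-derived cells at passage 5 by femoral vein each month, grown from 1 heart, and the vehicle group received the culture medium IMDM. Each group has 2 libraries, of 22481391 to 27187425 expected counts each, a 1.21-fold range. The labels do not tie libraries to animals, so p-values measure only the spread between these samples.

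A mitochondrial ribosome translates the messenger RNAs of the mitochondrial genome, which encode core subunits of the respiratory chain. Its ribosomal RNAs come from the mitochondrial genome, whereas its proteins are encoded in the nucleus, made in the cytosol and imported. Some of these proteins have bacterial homologues and others are found only in mitochondria, and muscle, an oxidative tissue, depends on the proteins that these ribosomes make.

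The tissue label was checked against defining markers. The 7 markers of the muscle fiber, among them Acta1, Ckm and Myh7, summed to between 115452 and 132531 CPM (read counts scaled by library size) per library, and the 4 markers of T cells to 0.695 CPM in vehicle replicate 2 and about 1.0 CPM in the others. Markers of other cells differed between libraries, and vehicle replicate 2 had the highest sums for several cell types. Its fibroblast markers summed to 341 CPM, against 180 to 199 CPM in the other 3 libraries. Its endothelial markers summed to 162 CPM against 72.3 to 91.7 CPM, and its red cell markers to 432 CPM against 234 to 267 CPM. Adipocyte markers were at 3.49 CPM in that library, against 15.4 CPM in vehicle replicate 1 and 8.40 CPM in each mCDC library. Fast-fiber myosins differed within groups. Myh4 was at 2096 CPM in mCDC replicate 1 against 47.5 to 411 CPM elsewhere, and Myh1 at 603 CPM in mCDC replicate 2 against 1661 to 4490 CPM. Of the markers, 3 were called higher in mCDC muscle, namely Pax7 of satellite cells (log2 fold change 0.76 ± 0.28), Cd68 of macrophages (1.49 ± 0.54) and Scx of tendon (0.86 ± 0.20). Another 6 were called lower, namely Pdgfra (-0.74 ± 0.31) and Lum (-1.02 ± 0.29) of fibroblasts, Csf1r of macrophages (-0.67 ± 0.28), Rgs5 of pericytes (-0.60 ± 0.16), Hba-a2 of red cells (-1.04 ± 0.15) and Tnmd of tendon (-1.36 ± 0.30). None passed adjustment. Of all tested genes, 1.26% were called higher and 2.74% lower. Among tested markers, 1 of 3 was called for satellite cells and 1 of 3 for smooth muscle and pericytes. It was 2 of 4 for fibroblasts and 1 of 4 for red cells. For macrophages and for tendon, 1 of 3 was called higher and 1 of 3 lower. The other marker lists held no call. Pdgfra was at 6.70 and 5.21 CPM with mCDCs against 6.98 and 12.95 CPM, so its value rested on vehicle replicate 2. Cd68 was at 4.13 and 15.4 CPM against 2.71 and 4.15 CPM, so its value rested on mCDC replicate 2 and the groups overlapped. Rgs5 is 1 of 3 markers of smooth muscle and pericytes, of which 2 had log2 fold changes above 0, with a median of 0.08. None of the 4 red cell markers was above 0, but Hba-a1 overlapped between groups, at 234 and 243 CPM against 199 and 368 CPM. The part of these markers in the results was not tested. In bulk tissue, fewer cells of a type and less RNA per cell cannot be told apart.

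Many promoters of these genes hold short words that NRF-1, GABP or YY1, transcription factors of mitochondrial biogenesis, are known to read. The sequences below are the 100 bases before the RefSeq start site, on the gene's own strand (GRCm38.p6), for 5 members with higher fold changes or several words and 2 members, Mrpl22 and Mrps26, with the lowest. They were picked by hand, and each stretch shown holds a match. Members with still higher fold changes, such as Mrps18b and Mrps2, are not shown. Capitals mark matches on either strand to the NRF-1 word GCGCATGC, its core TGCGCA, the GABP word CCGGAAG or the YY1 word AANATGGCG.
Mrps6, chr16:92058236-92058335, plus strand: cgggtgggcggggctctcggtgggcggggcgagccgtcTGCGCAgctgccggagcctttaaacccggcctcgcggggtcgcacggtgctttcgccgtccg
Mrps27, chr13:99344686-99344785, plus strand: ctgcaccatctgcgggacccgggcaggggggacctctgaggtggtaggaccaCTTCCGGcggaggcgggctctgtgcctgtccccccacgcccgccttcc
Mrps18a, chr17:46110904-46111003, plus strand: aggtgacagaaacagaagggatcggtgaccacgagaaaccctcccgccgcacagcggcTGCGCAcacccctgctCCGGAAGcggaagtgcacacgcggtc
Mrpl45, chr11:97315616-97315715, plus strand: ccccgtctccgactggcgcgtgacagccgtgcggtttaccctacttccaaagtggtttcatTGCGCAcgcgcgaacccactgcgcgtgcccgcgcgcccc
Mrpl32, chr13:14613038-14613137, minus strand: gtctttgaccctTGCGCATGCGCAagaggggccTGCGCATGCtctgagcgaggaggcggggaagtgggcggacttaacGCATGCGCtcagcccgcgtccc
Mrpl22, chr11:58171564-58171663, plus strand: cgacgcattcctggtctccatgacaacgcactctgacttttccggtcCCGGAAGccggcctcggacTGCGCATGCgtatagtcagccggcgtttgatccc
Mrps26, chr2:130563657-130563756, plus strand: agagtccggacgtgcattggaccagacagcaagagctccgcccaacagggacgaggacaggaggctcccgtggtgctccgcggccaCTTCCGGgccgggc

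Over windows of 300 bases, 250 before and 50 from the start, RefSeq held 74 windows for 68 of the 77 members. The NRF-1 word was found in 10.8% of member windows and 2.71% of all 32851 windows, and its core in 28.4% and 7.76%. The 2 NRF-1 words share letters and can overlap, as in Mrpl22. The GABP word was in 33.8% of member windows against 8.86%, and the YY1 word in 13.5% against 2.38%. The GC box of Sp1, GGGCGG, was in 52.7% against 35.7%, the E-box CACGTG in 9.46% against 7.15% of windows but, counted once per gene, in 7.35% of members against 8.09% of genes, and the TATA word TATAAA in 6.76% against 13.6%. At least 1 NRF-1, GABP or YY1 word was found for 44 members, or 64.7% of those with a window, against 19.7% of all genes with one. A match is a description of letters and not evidence of binding.

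**Figure D1:**
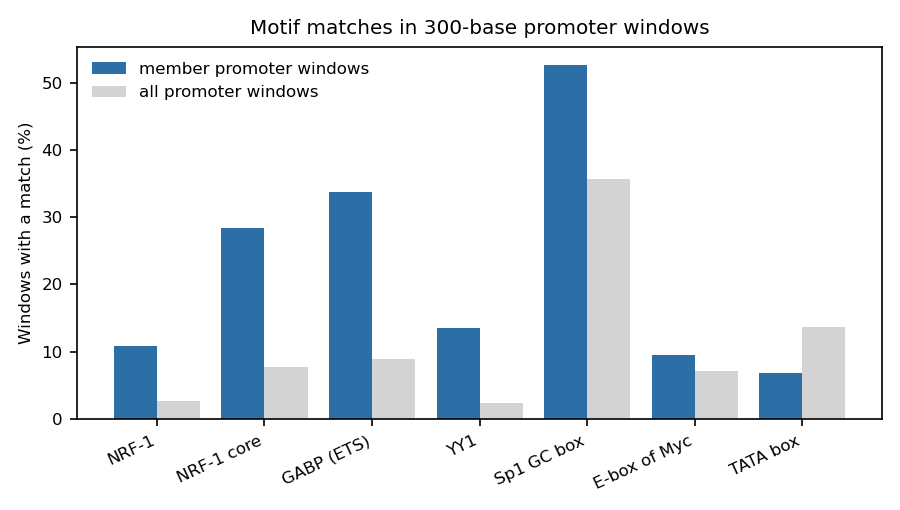
Share of promoter windows of 300 bases (%, y axis) with a match on either strand to each word (x axis), for the 74 member windows and all 32851 windows. NRF-1, GABP and YY1 words are at higher shares in member windows, and the TATA word at a lower share (6.76% against 13.6%).

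The fold changes of members with and without these words are given side by side, with no test. The median log2 fold change of mCDC over vehicle was 0.16 for the 20 members with the NRF-1 core and 0.16 for the 48 without. It was 0.14 for the 25 members with the GABP word and 0.16 for the 43 without. The 10 members with the YY1 word had a median of 0.21, against 0.16 for the other 58. Mrpl22 and Mrps26, at the bottom of the order of fold changes, carry the GABP word within the 100 bases shown above.

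Relative to all tested genes, expression of the mitochondrial ribosomal proteins was slightly higher in mCDC muscle. With trimmed mean of M-values (TMM) scaling, all 77 log2 fold changes were above 0, against 48.4% of all tested genes. Their median was 0.16, a 1.12-fold difference, and they ran from 0.02 for Mrps26 to 0.42 for Mrps18b. All tested genes had a median of -0.01, with quartiles of -0.22 and 0.15, so the members' median lay 0.17 above it. The 77 values share 4 libraries and their scaling, and are not independent of each other.

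No single member passed the study's threshold, which asks for more than a 1.5-fold difference together with an unadjusted p under 0.05. The count was 0 of 77 in either direction, where 1.26% of all tested genes were called higher and 2.74% lower. At an unadjusted p under 0.05 alone, 3 members were higher (2.85% of all tested genes were) and 0 were lower (4.09% were). The smallest Benjamini-Hochberg adjusted p among members, by edgeR's quasi-likelihood test, was 0.705. DESeq2, edgeR's likelihood ratio test and its exact test also gave 0 members called, with 2 members each at an unadjusted p under 0.05. That count was 0 without mCDC replicate 2, 7 without vehicle replicate 2, 2 without each of the other libraries and 0 with scaling by library totals only. The 95% interval of the fold change lay wholly within 1.5-fold either way for 62 of the 77, against 40.7% of all tested genes. Standard errors ran from 0.12 to 0.18 for members, with a median of 0.14 against 0.20 for all tested genes.

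**Figure D2:**
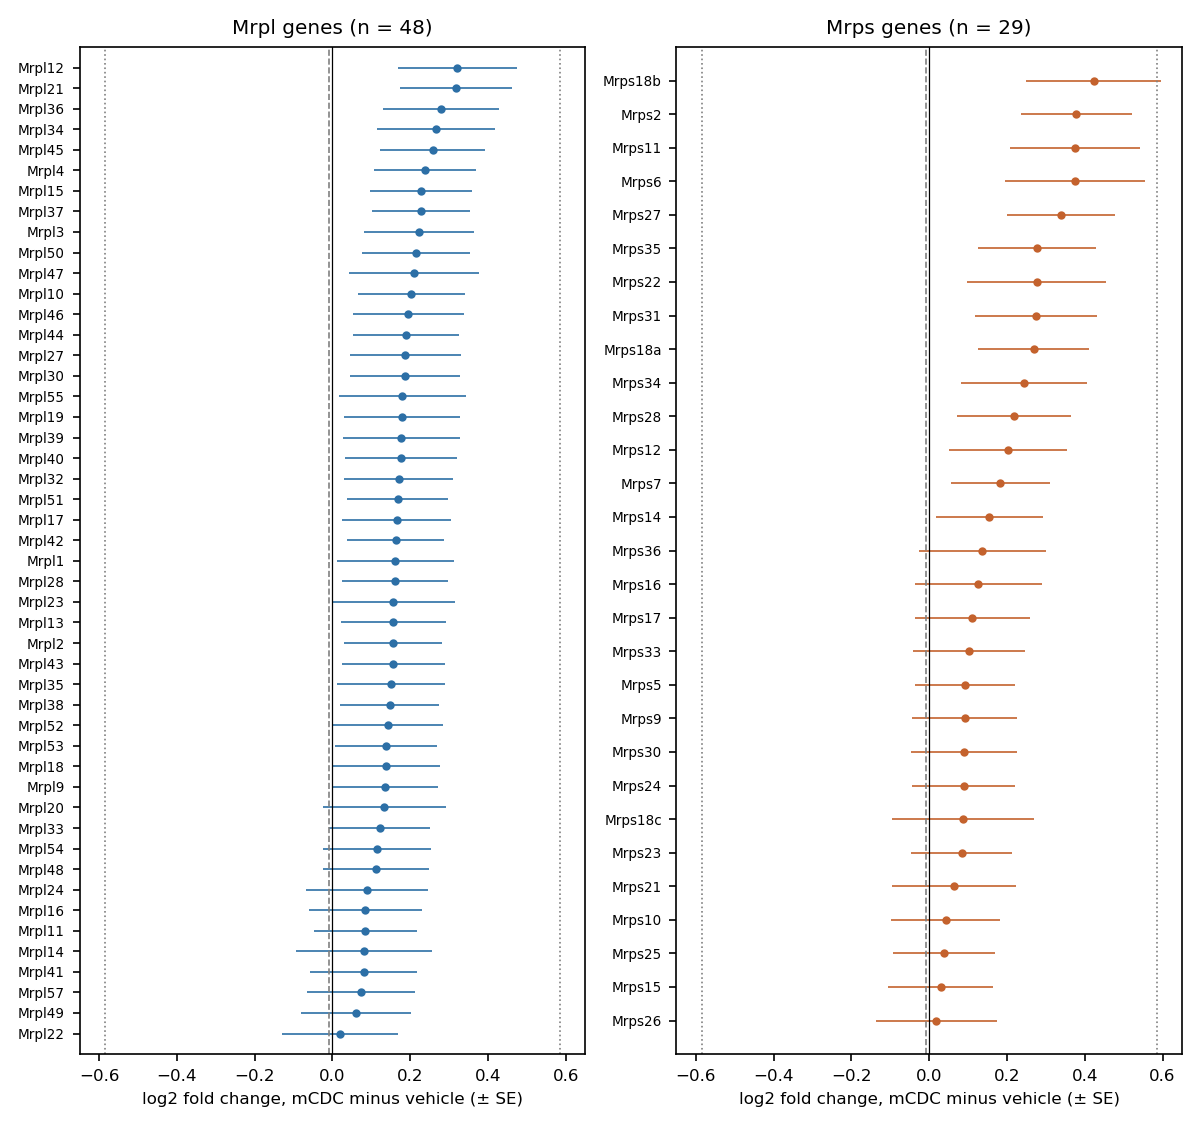
Log2 fold change of mCDC over vehicle (x axis; points, bars ± SE) for the 48 Mrpl and 29 Mrps genes, ordered by size, with 2 libraries per group. Dotted lines mark 1.5-fold, the dashed line the median of all tested genes, and with TMM scaling all 77 points lie above 0 and within 1.5-fold.

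The libraries separated by group for most members. Both mCDC libraries were above both vehicle libraries for 56 of 77 members, against 19.2% of all tested genes, and both were below for 0 of 77, against 19.5%. Averaged over the 77 genes, log2 CPM was 5.57 and 5.65 with mCDCs and 5.40 and 5.48 with vehicle. Their summed expression was 4235 and 4486 CPM with mCDCs and 3734 and 4034 CPM with vehicle. Replicates of 1 group also differed. The median member was 0.07 log2 higher in mCDC replicate 2 than in replicate 1, and 0.07 higher in vehicle replicate 2 than in replicate 1. The closest pair across groups was mCDC replicate 1 and vehicle replicate 2, with a median difference of 0.09 and 58 of 77 members higher in the mCDC library. Vehicle replicate 1 held the lowest value for 56 members and mCDC replicate 2 the highest for 59. With 2 libraries against 2, a two-sided exact permutation test cannot give a p below 0.333.

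**Figure D3:**
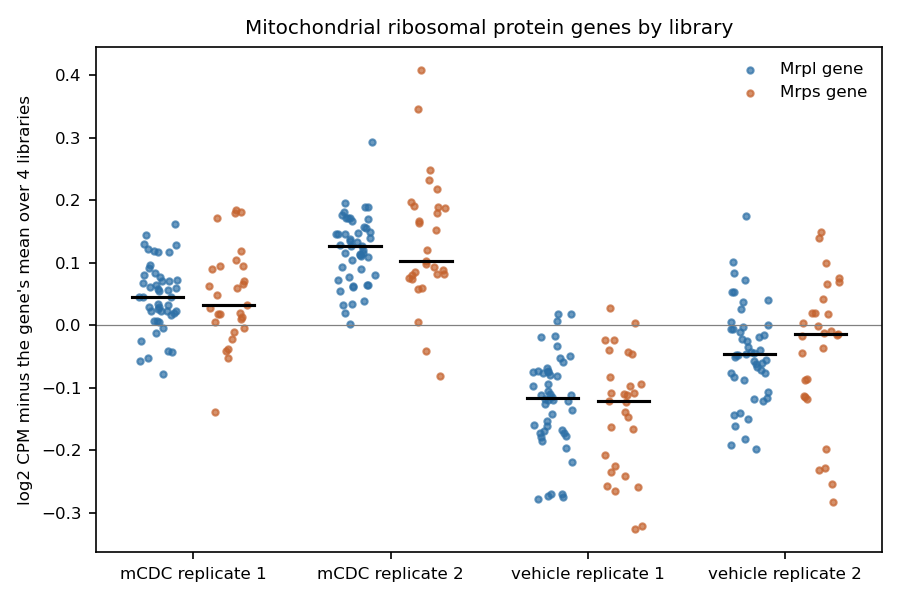
Log2 CPM of each member minus its own mean over the 4 libraries (y axis) by library (x axis), with Mrpl and Mrps genes in separate columns and black lines at the medians. Both mCDC libraries lie mostly above 0, vehicle replicate 1 is the lowest, and vehicle replicate 2 overlaps with mCDC replicate 1.

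The absolute size and sign of the difference depended on the scaling. On library totals alone, 68 of 77 members were above 0 with a median of 0.08, while the median of all tested genes fell to -0.09. On a per-length scale in which units sum to the same total in each library (TPM-like, chosen after seeing the data), 53 of 77 were above 0, with a median of 0.04 against -0.13 for all tested genes. Both scalings shift all genes of a library together, so they leave the distance of 0.17 between the members and all tested genes as it was. Other choices moved that distance. All 77 members lay above the median of all tested genes in the reported fit, against 71 with a length and GC trend removed, 69 without vehicle replicate 1 and 72 without mCDC replicate 2. The number with both mCDC libraries above both vehicle libraries was 29 on library totals, where 10.7% of all tested genes were, and 19 on the per-length scale, where 7.28% were. On the per-length scale 8 of 77 members were lower in both mCDC libraries, against 33.5% of all tested genes.

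The members with the largest fold changes belonged to the small subunit. Mrps18b (chr17:35910379-35916389, GRCm38), a protein of the small subunit, was at 69.4 and 91.8 CPM with mCDCs, against 55.1 and 65.1 CPM with vehicle. The groups did not overlap in CPM, but mCDC replicate 1 lay closer to vehicle replicate 2 than to its own replicate. Per length, mCDC replicate 1 was at 143.38 TPM-like units and vehicle replicate 2 at 143.39. The log2 fold change was 0.42 ± 0.17 (SE; adjusted p = 0.713, edgeR), and it ran from 0.21 without mCDC replicate 2 to 0.61 without mCDC replicate 1, where it was the 1 member called. Mrps2 (chr2:28468066-28471178), in which human mutations cause mitochondrial disease, was at 32.6 and 32.9 CPM against 25.9 and 24.4 CPM. Its replicates were close together within each group, and its log2 fold change was 0.38 ± 0.14 (adjusted p = 0.705, edgeR). Below Mrps11 and Mrps6, Mrps27 (chr13:99344786-99415562), an RNA-binding protein found only in mitochondria, was at 40.6 and 40.4 CPM against 33.3 and 30.7 CPM, a log2 fold change of 0.34 ± 0.14 (adjusted p = 0.713, edgeR). These 3 genes were those with an unadjusted p under 0.05, at 0.0406, 0.0290 and 0.0407.

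Mrps11 and Mrps6, proteins with bacterial homologues that bind the ribosomal RNA of the small subunit, ranked between Mrps2 and Mrps27. Mrps11 was at 15.6 and 15.7 CPM with mCDCs and 11.5 and 12.7 CPM with vehicle, a log2 fold change of 0.37 ± 0.17. Mrps6 was at 15.1 and 18.9 CPM against 13.2 and 12.95 CPM, a log2 fold change of 0.37 ± 0.18. Neither gene's groups overlapped. At the other end, Mrps26, Mrps15, Mrps25 and Mrps10 had log2 fold changes of 0.02 to 0.04, with SEs of 0.13 to 0.16. Mrps26 was at 63.5 and 55.9 CPM with mCDCs and 52.8 and 65.1 CPM with vehicle, so its highest and lowest values were both in vehicle libraries. Mrps15, at 76.4 and 75.2 CPM against 69.6 and 79.0 CPM, showed the same overlap. For both genes the sign depended on which library was left out.

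The 9 proteins of the small subunit taken here as found only in mitochondria, which leave out the S18 paralogues, spread widely. Mrps27, Mrps35, Mrps22, Mrps31, Mrps34, Mrps33, Mrps23, Mrps25 and Mrps26, in falling order, ran from 0.34 to 0.02 on the log2 fold change scale. Mrps34, which stabilizes the ribosomal RNA of the small subunit, was at 95.1 and 104 CPM with mCDCs and 72.6 and 95.1 CPM with vehicle. Its fold change therefore rested on vehicle replicate 1, and the log2 value without that library was 0.07, against 0.24 ± 0.16 with all 4. Mrps22, mutated in human mitochondrial disease, was at 17.0 and 19.4 CPM against 16.5 and 13.5 CPM, a log2 fold change of 0.28 ± 0.18.

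Bacterial S18 has 3 paralogues here. Mrps18b and Mrps18c belong to the small subunit, whereas Mrps18a, despite its symbol, belongs to the large. Mrps18a was at 76.2 and 80.9 CPM with mCDCs and 59.7 and 70.7 CPM with vehicle, a log2 fold change of 0.27 ± 0.14 with no overlap between groups. Mrps18c was at 16.3 and 20.9 CPM against 16.5 and 18.5 CPM, with a log2 fold change of 0.09 ± 0.18. The differences between the 3 paralogues were not tested. Per length, Mrps18a and Mrps18b had like levels (means of 163 and 150 TPM-like units) and Mrps18c a lower one (57.1). Mrps30, a second member with a small-subunit symbol that sits in the large subunit, was at 52.2 and 54.9 CPM against 52.8 and 47.8 CPM (0.09 ± 0.14). Mrps36, now known as a subunit of the 2-oxoglutarate dehydrogenase complex and not of the ribosome, was at 39.4 and 33.8 CPM against 30.1 and 36.5 CPM (0.14 ± 0.16), and its groups overlapped. With proteins placed by structure rather than by symbol, the 50 large-subunit members were at a median of 0.16 on the log2 scale and the 26 small-subunit members of 0.14.

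Mrps7, Mrps12 and Mrps16 had values nearer the middle of the range. Mrps7, a disease gene in humans like Mrps2 and Mrps22, was at 92.5 and 92.1 CPM with mCDCs and 78.6 and 83.9 CPM with vehicle, and Mrps12, a protein of the decoding center, at 45.7 and 56.4 CPM against 44.0 and 44.7 CPM. Both had their mCDC libraries above their vehicle libraries in CPM, with log2 fold changes of 0.18 ± 0.13 and 0.20 ± 0.15. Per length this held for Mrps7 but not for Mrps12, at 111 TPM-like units in mCDC replicate 1 against 118 and 115 with vehicle. Mrps16 was at 30.6 and 30.9 CPM against 24.9 and 31.4 CPM (0.13 ± 0.16), with vehicle replicate 2 the highest of the 4.

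The Mrpl genes lay in a narrower band. Their log2 fold changes had quartiles of 0.13 and 0.20 over the 48 Mrpl genes, against 0.09 and 0.27 over the 29 Mrps genes, and the groups did not overlap for 40 of 48 Mrpl genes against 16 of 29 Mrps genes, where 19.2% of all tested genes were higher in both mCDC libraries. The difference between the families was not tested. Summed Mrpl expression was 1.89 to 1.92 times summed Mrps expression in each library.

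The stalk of the large subunit recruits the factors that drive translation. Mrpl12 (chr11:120484613-120489065), the stalk protein that contacts these factors, was at 144 and 173 CPM with mCDCs and 117 and 137 CPM with vehicle. It had the highest log2 fold change of the Mrpl genes, 0.32 ± 0.15 (adjusted p = 0.726, edgeR). Mrpl10, which anchors Mrpl12, was at 42.2 and 46.6 CPM against 38.1 and 39.0 CPM (0.20 ± 0.14). Mrpl11, at the base of the stalk, was at 48.6 and 49.97 CPM against 45.6 and 47.4 CPM (0.08 ± 0.13). The mCDC libraries were above the vehicle libraries for all 3 stalk genes, as they were for 56 of the 77 members and 19.2% of all tested genes. On the per-length scale this held for Mrpl10 but not for Mrpl12, at 213 TPM-like units in mCDC replicate 1 against 216 in vehicle replicate 2. Mrpl11 was then lower in both mCDC libraries, at 31.04 and 31.5 units, than in both vehicle libraries, at 32.1 and 32.2.

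Around the exit tunnel, through which the new chain leaves, none of the members passed the test and the differences between them were not tested. Mrpl45, which tethers the ribosome to the inner membrane, was at 64.2 and 70.5 CPM with mCDCs and 54.1 and 58.6 CPM with vehicle (0.26 ± 0.14). Mrpl23 was at 72.0 and 75.1 CPM against 57.5 and 74.4 CPM (0.16 ± 0.16), and Mrpl24 at 45.6 and 54.0 CPM against 43.1 and 50.6 CPM (0.09 ± 0.16). The groups overlapped for both. Mrpl23 shares 77.0% of its 31-base words with another annotated transcript. Its expected counts were whole numbers in all 4 libraries (1902, 1644, 1508 and 2045), so they show no split of reads with a copy. Mrpl22 was at 24.7 and 26.5 CPM against 24.2 and 26.4 CPM, the lowest log2 fold change of the Mrpl genes (0.02 ± 0.15).

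Other large-subunit members with bacterial homologues completed the top of the list. Mrpl21 was at 28.7 and 30.0 CPM with mCDCs and 23.4 and 23.7 CPM with vehicle, with log2 fold change 0.32 ± 0.14. Mrpl36 was at 23.9 and 24.3 CPM against 19.4 and 20.3 CPM (0.28 ± 0.15), and Mrpl34 at 44.8 and 43.2 CPM against 33.1 and 40.1 CPM (0.27 ± 0.15). None of these genes overlapped between groups in CPM. Mrpl3 and Mrpl44, both mutated in human cardiomyopathy, had log2 fold changes of 0.22 ± 0.14 and 0.19 ± 0.14, also without overlap in CPM. Per length, Mrpl21 and Mrpl36 still did not overlap, but Mrpl34, Mrpl3 and Mrpl44 did. At the low end, Mrpl49, Mrpl57, Mrpl41 and Mrpl14 had values of 0.06 to 0.08. Mrpl14, a protein of the interface between subunits, ranged most widely of these, at 78.8 and 90.6 CPM against 67.8 and 92.3 CPM.

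Levels between genes were compared per transcript length, as TPM-like units averaged over the 4 libraries. They spanned 8.51 to 548 with a median of 69.7, and the medians were 75.3 for Mrpl and 57.1 for Mrps genes. Mrpl42 had the highest level, at 556 and 555 units with mCDCs and 538 and 545 with vehicle. Mrpl33 (mean 274) and Mrpl54 (259) were next among Mrpl genes, and Mrps21 (321), Mrps34 (200) and Mrps23 (174) led the Mrps genes. These places are by mean. Mrps23 was above Mrps34 in vehicle replicate 1 and below Mrps18a in mCDC replicate 1. The lowest in each family were Mrpl47 (8.51) and Mrpl17 (11.1), and Mrps35 (14.9) and Mrps25 (18.2). These 4 have long annotated transcripts, of 3364 bases for Mrpl47 and 7300 bases for Mrpl17, so their place in the order depends on that annotation. Mrpl14 (mean 257) cannot be ranked against Mrpl54 or Mrpl33, since it ranged from 225 to 296 units. Mrpl54 ranged from 247 to 273 and Mrpl33 from 265 to 283 units.

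The genes lie on 17 chromosomes. Of the 77, 18 (23.4%) have a protein-coding neighbor on the opposite strand that starts up to 1000 bases upstream, against 6.79% of protein-coding genes. The start sites of these pairs were 26 to 935 bases apart. Opposite-strand genes whose starts overlap, such as Mrps11 and Mrpl46, were not counted as pairs. Of 17 tested partners, 11 had a log2 fold change above 0, against 48.4% of all tested genes. None of the partners was called, where 1.26% of all tested genes were called higher and 2.74% lower. The partners' median was 0.09, against 0.17 for the members in these pairs. Mrps18b and its partner Ppp1r10, 45 bases away, had log2 fold changes of 0.42 and 0.40, but Ppp1r10 was at 26.1 and 48.6 CPM with mCDCs and 31.6 and 25.1 CPM with vehicle, so its fold change rested on mCDC replicate 2. Mrpl32 and the proteasome gene Psma2, 75 bases away, were both at a log2 fold change of 0.17 without overlap between groups.

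Genes that build or use the mitochondrial ribosome were compared with it as lists. The 6 other proteins of the ribosome, among them Dap3 and Chchd1, were at a median of 0.11 on the log2 fold change scale. All 6 of 6 were above 0, as were 48.4% of all tested genes, and 1 of 6 was without overlap, a share near the 19.2% of all tested genes that were higher in both mCDC libraries. The 26 genes of ribosome assembly and ribosomal RNA modification had a median of 0.08, with 19 above 0, 12 higher in both mCDC libraries and 2 lower, against 19.2% and 19.5% of all tested genes. None was called. Rnmtl1, a methyltransferase of the large ribosomal RNA, was at 22.2 and 25.4 CPM with mCDCs and 17.7 and 19.0 CPM with vehicle (0.38 ± 0.16, adjusted p = 0.713, edgeR). Mterfd2, a partner of a methyltransferase of the small ribosomal RNA, was at 17.8 and 14.0 CPM against 19.6 and 22.4 CPM (-0.40 ± 0.18, adjusted p = 0.724, edgeR). The 15 translation factors had a median of 0.08 and 10 above 0. Among them Tufm, the elongation factor that delivers aminoacyl-tRNA, was at 156 and 158 CPM against 125 and 137 CPM (0.26 ± 0.13). The 21 genes of mitochondrial transcription and RNA processing had a median of 0.14, with 19 above 0. Trmt10c, a subunit of mitochondrial RNase P, was at 15.7 and 16.8 CPM against 13.3 and 10.4 CPM (0.46 ± 0.19, adjusted p = 0.713, edgeR).

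Of 10 regulators of mitochondrial gene expression, 1 was called higher and 1 lower, against 1.26% and 2.74% of all tested genes. Both belong to the PGC-1 family of coactivators, which work with NRF-1 and the estrogen-related receptors. Pprc1 was at 28.5 and 30.7 CPM with mCDCs and 19.4 and 17.4 CPM with vehicle, a log2 fold change of 0.69 ± 0.15 (adjusted p = 0.560, edgeR). Ppargc1a was at 35.7 and 29.6 CPM with mCDCs and 60.3 and 45.6 CPM with vehicle, a log2 fold change of -0.70 ± 0.18 (adjusted p = 0.612, edgeR). The groups did not overlap for either gene, and neither passed adjustment over all tested genes. Pprc1 was called without each library in turn, at 0.61 to 0.77. Ppargc1a fell short of the call without mCDC replicate 2 (-0.57) and without vehicle replicate 1 (-0.48), and also with all 4 libraries once the length and GC trend was removed (-0.48). Ppargc1b (0.20 ± 0.15), Esrra (0.26 ± 0.14), Nrf1 (0.16 ± 0.17), Gabpa (-0.24 ± 0.16) and Yy1 (-0.01 ± 0.14) were not called. Neither were Gabpb1 (0.26 ± 0.19), Myc (0.29 ± 0.28) and Sp1 (0.10 ± 0.17).

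Nuclear genes for the respiratory chain and for the cytosolic ribosome had medians near that of the mitochondrial ribosome. The 78 tested subunits of oxidative phosphorylation (OXPHOS) were at a median of 0.15 in log2 fold change, 76 of them above 0, and 0 were called. The 81 tested cytosolic ribosomal proteins had a median of 0.19, with 79 above 0, against 48.4% of all tested genes, and Rpl3 called higher, a share like the 1.26% of all tested genes. Both mCDC libraries were above both vehicle libraries for 27 of 78 OXPHOS subunits and 22 of 81 cytosolic ribosomal proteins, beside the 56 of 77 given above and 19.2% of all tested genes. Mean log2 CPM of the cytosolic ribosomal proteins was 7.60 and 7.83 with mCDCs and 7.40 and 7.64 with vehicle. That of the OXPHOS subunits was 8.15 and 8.25 against 7.94 and 8.16. On this mean, vehicle replicate 2 lay slightly above mCDC replicate 1 in both lists, which was not so for the mitochondrial ribosome. That order depended on the measure. As a share of all expected counts, the mitochondrial ribosome was at 0.411% in mCDC replicate 1 and 0.421% in vehicle replicate 2. Summed OXPHOS expression was 34767.6 CPM in mCDC replicate 1 and 34092.2 CPM in vehicle replicate 2, and that of the cytosolic ribosomal proteins 20908.5 and 21429.2 CPM. The difference between the lists was not tested.

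**Figure D4:**
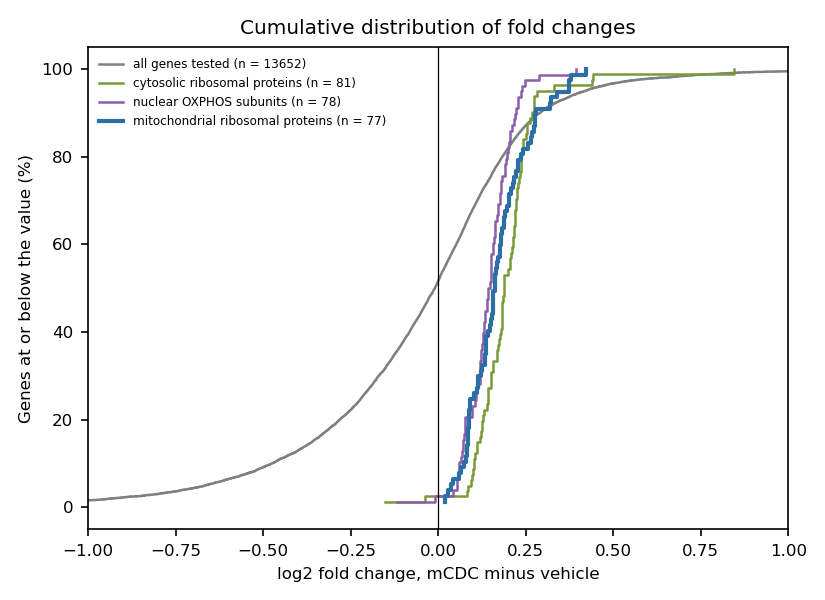
Cumulative share of genes (%, y axis) at or below each log2 fold change of mCDC over vehicle (x axis, cropped to 1 either way) for 4 gene lists. The 77 mitochondrial ribosomal proteins, 78 OXPHOS subunits and 81 cytosolic ribosomal proteins form steep curves to the right of 0, with medians of 0.16, 0.15 and 0.19.

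Leaving out each library kept the members' median above that of all tested genes. It was lowest without vehicle replicate 1 (0.12, with 69 of 77 above 0) and highest without vehicle replicate 2 (0.20, with 77 above 0), the library with the higher fibroblast and endothelial markers. Without mCDC replicate 1 it was 0.19, with 76 above 0, and without mCDC replicate 2 it was 0.14, with 70 above 0. The median of all tested genes lay between -0.03 and 0.01 in these 4 fits. Among the 63 members that share under 20% of their 31-base words with another gene, the median was 0.17 and 49 did not overlap between groups. Among the 45 whose exons overlap no other gene it was 0.16, with 31 not overlapping. For all tested genes the share higher in both mCDC libraries was 19.2%.

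**Figure D5:**
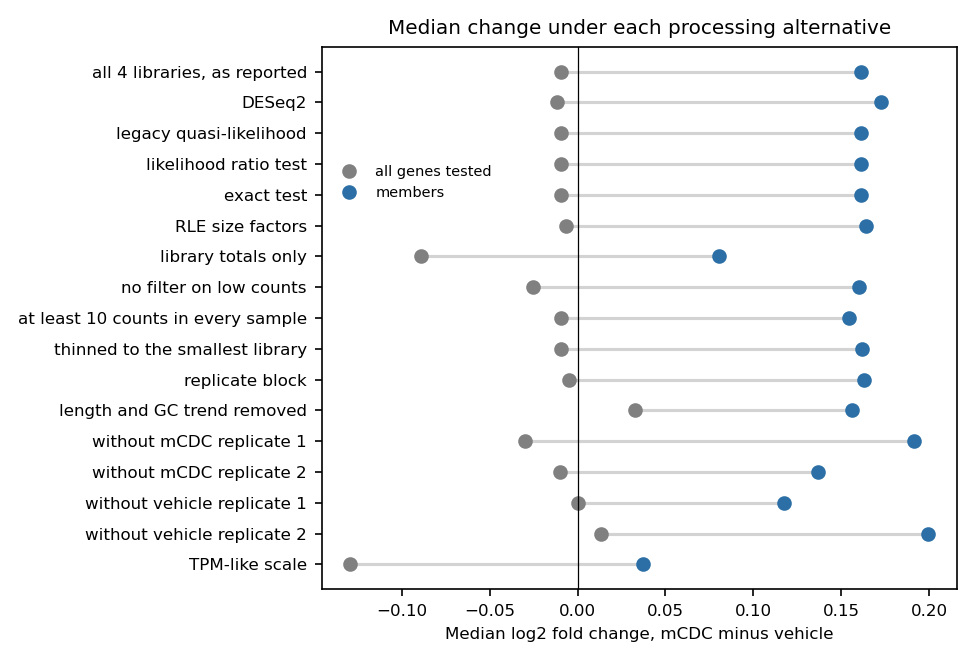
Median log2 fold change of mCDC over vehicle (x axis) for the 77 members and for all tested genes, joined by a line, under each way of processing or with each library left out (y axis). The members' median is above that of all tested genes in every row, and both move down on library totals (0.08 and -0.09) and on the per-length scale (0.04 and -0.13).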

How the data were processed

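Soleus RNA of 2 mCDC and 2 vehicle samples was sequenced as single-end reads. The authors mapped them with Bowtie2 2.1.0 and estimated expression with RSEM 1.2.15 on mm10, per the submitters' processing notes, and deposited RSEM expected counts per gene, not normalized. The labels name a stranded mRNA library kit and the methods another kit, so whether strand was used is not known, and genes that overlap on opposite strands (27 members) may share reads. Genes of the mitochondrial genome were not analysed here.

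The rounded expected counts were analysed in R 4.3.3 by edgeR 4.0.16 (filterByExpr, TMM, quasi-likelihood F-test, legacy = FALSE, Benjamini-Hochberg adjustment over 13652 genes). Calls followed the study's rule, more than 1.5-fold and unadjusted p under 0.05. CPM are counts scaled by TMM library size, with a prior count of 2 for log2 CPM only. TPM-like units divide counts by the median annotated transcript length and scale each library to the same total, for comparing levels between genes. The depth was 22481391 to 27187425 counts per library, and members had 301 to 5008 counts in a library. Positions are from GENCODE M21 (GRCm38) and promoters from RefSeq (GRCm38.p6). The share of 31-base words that a transcript has in common with other genes marked counts that could be split. The procedure was tested on simulated data whose changes were larger than those of the members. Recovery of differences as small as theirs was not tested.

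The members and lists were chosen with earlier results of these data known. Named members were those called, the 5 Mrpl and 4 Mrps genes with the highest and with the lowest fold change, the 3 highest and 2 lowest levels of each family, and a list of stalk, exit tunnel, disease and paralogue genes. Called genes of the pathway lists were also named. Mrps27, Mrps31, the marker genes, Mrps33, Mrpl32 and the uncalled list genes, Rpl3 and the neighbors Ppp1r10 and Psma2 were named after their values were seen. Replicate numbers did not pair the samples. Deviations of same-numbered libraries correlated at -0.04 over 13652 genes. Alternatives were DESeq2 1.42.0, other edgeR tests, scalings and filters, thinning to the smallest library, a replicate block, a length and GC correction, and leaving out each library.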

Additional observations from a re-analysis of the deposited data

How the results depend on the processing

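The members' median log2 fold change was 0.15 to 0.17 in 10 of the other settings with all 4 libraries: DESeq2, 3 other edgeR tests, RLE size factors, 2 filters on low counts, thinning, the replicate block and removal of a length and GC trend. The replicate block gave 0.16 with 77 of 77 above 0, and 172 genes called higher and 308 lower against 172 and 374 without it. No member was called in any of them. With the length and GC trend removed, all tested genes had a median of 0.03, 71 of 77 members were above it, and 42.5% of calls were higher, against 31.5%. On library totals only, 19.2% of calls were higher. No gene passed an adjusted p of 0.05 in the reported fit, whereas DESeq2 gave 48, the likelihood ratio test 66 and the exact test 58, none of them members, and the fits without mCDC replicate 1, mCDC replicate 2 or vehicle replicate 2 gave 91, 17 and 1. The cause was not tested.

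On library totals only, the medians were 0.080 for members, 0.083 for Mrpl and 0.055 for Mrps genes, 0.027 for other ribosome proteins, -0.0025 for assembly, -0.0018 for translation factors, 0.064 for transcription and RNA processing and 0.10 for regulators, and 29 members had both mCDC libraries above both vehicle libraries. These shifts follow from the scaling, which lowered all genes together. On the TPM-like scale the medians were 0.037 for members, 0.038 for Mrpl and 0.013 for Mrps genes, with 19 members separated by group. Both of these counts of separated members, and the TPM-like scale, were chosen after seeing the data. On library totals only, the sign turned for Mrpl14 (-0.0016), Mrpl22 (-0.061), Mrpl49 (-0.019), Mrpl57 (-0.0056), Mrps10 (-0.038), Mrps15 (-0.052), Mrps21 (-0.018), Mrps25 (-0.043) and Mrps26 (-0.063). It also turned for Mrps26 after thinning (-0.0054) and for Mrps15 with the length and GC trend removed (-0.018). Ppargc1a was at -0.48 with that trend removed and was then not called.

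Leaving out each library in turn left an arm of 1, assumed to vary like the other. The medians ran from 0.12 to 0.20 for members, 0.13 to 0.20 for Mrpl genes, 0.083 to 0.18 for Mrps genes, 0.015 to 0.19 for other ribosome proteins, 0.011 to 0.14 for translation factors and 0.082 to 0.27 for regulators. Member calls ran from 0 to 1 higher, the 1 being Mrps18b without mCDC replicate 1, and 0 were lower. The sign turned in at least 1 of these fits for Mrpl14 (-0.12 to 0.32), Mrpl22 (-0.038 to 0.083), Mrpl23 (-0.012 to 0.35), Mrpl24 (-0.037 to 0.21), Mrps10 (-0.020 to 0.10), Mrps15 (-0.056 to 0.12), Mrps16 (-0.028 to 0.30), Mrps18c (-0.10 to 0.26), Mrps21 (-0.11 to 0.26), Mrps25 (-0.0031 to 0.078) and Mrps26 (-0.12 to 0.18). All genes called ran from 112 higher and 236 lower without mCDC replicate 2 to 273 and 834 without vehicle replicate 1 and 397 and 544 without mCDC replicate 1.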
